A study of Mus musculus with 16 samples.

Results

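Nicotinamide riboside (NR) was given in drinking water to wild-type (WT) mice, and the hippocampal transcriptome of 4 treated mice (WT + NR) was compared with that of 4 WT mice on vehicle water. These 8 mice were taken by their labels from a series of 16, in which the other 8 carried the Thy1-driven human tau transgene hTau.P301S and were also divided between vehicle and NR. Per the labels, treatment with 6 mM NR or vehicle began at 12 months of age and lasted for 3 months, and the mice passed through behavioural testing at 15 months before the hippocampus was collected; the study's own text gives another age and, in one place, another duration. None of the 8 mice is labelled with a transgene, and sex, littermates and cage are not given in the sources used here. Of 54532 genes in the table, 16714 had enough reads in these 8 mice to be tested.

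NR is a form of vitamin B3 that cells phosphorylate to nicotinamide mononucleotide (NMN) and then adenylate to NAD+. NAD+ carries electrons in energy metabolism and is broken down by sirtuin deacylases, poly(ADP-ribose) polymerases (PARPs), CD38 and SARM1, which release nicotinamide for salvage through NAMPT. The hippocampus, a structure needed for spatial and episodic memory, holds the dentate gyrus and the pyramidal fields CA1 to CA3, and borders choroid plexus, thalamus and other tissue that a dissection can include.

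Between 16490261 and 18979269 counts were assigned to genes in each mouse, 22603 to 24918 genes had at least 1 count, and mitochondrially encoded genes took 4.48% to 6.46% of counts. The hippocampal markers Prox1 (dentate granule cells) and Wfs1 (CA1) were detected in every mouse, at 35.1 to 169 and 70.03 to 300 CPM (counts scaled to a common library size, with TMM normalization). Libraries nevertheless differed in tissue content, as the plot of marker lists by mouse shows. WT replicate 2 and WT + NR replicate 3 held hypothalamic and striatal transcripts: Avp, the vasopressin precursor, stood at 914 and 348 CPM there and at no more than 1.65 CPM in the other 6 mice, and Adora2a, the striatal adenosine receptor, at 157 and 14.5 CPM against 2.44 to 2.80. Ttr, the transthyretin transcript that marks choroid plexus, ran from 0.769 CPM in WT replicate 3 to 9425 CPM in WT + NR replicate 4, and was high in 2 mice of each group. One mouse of each group, WT replicate 3 and WT + NR replicate 3, expressed Y-linked genes. In these bulk samples, fewer cells of a type and less RNA per cell cannot be told apart.

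**Figure D1:**
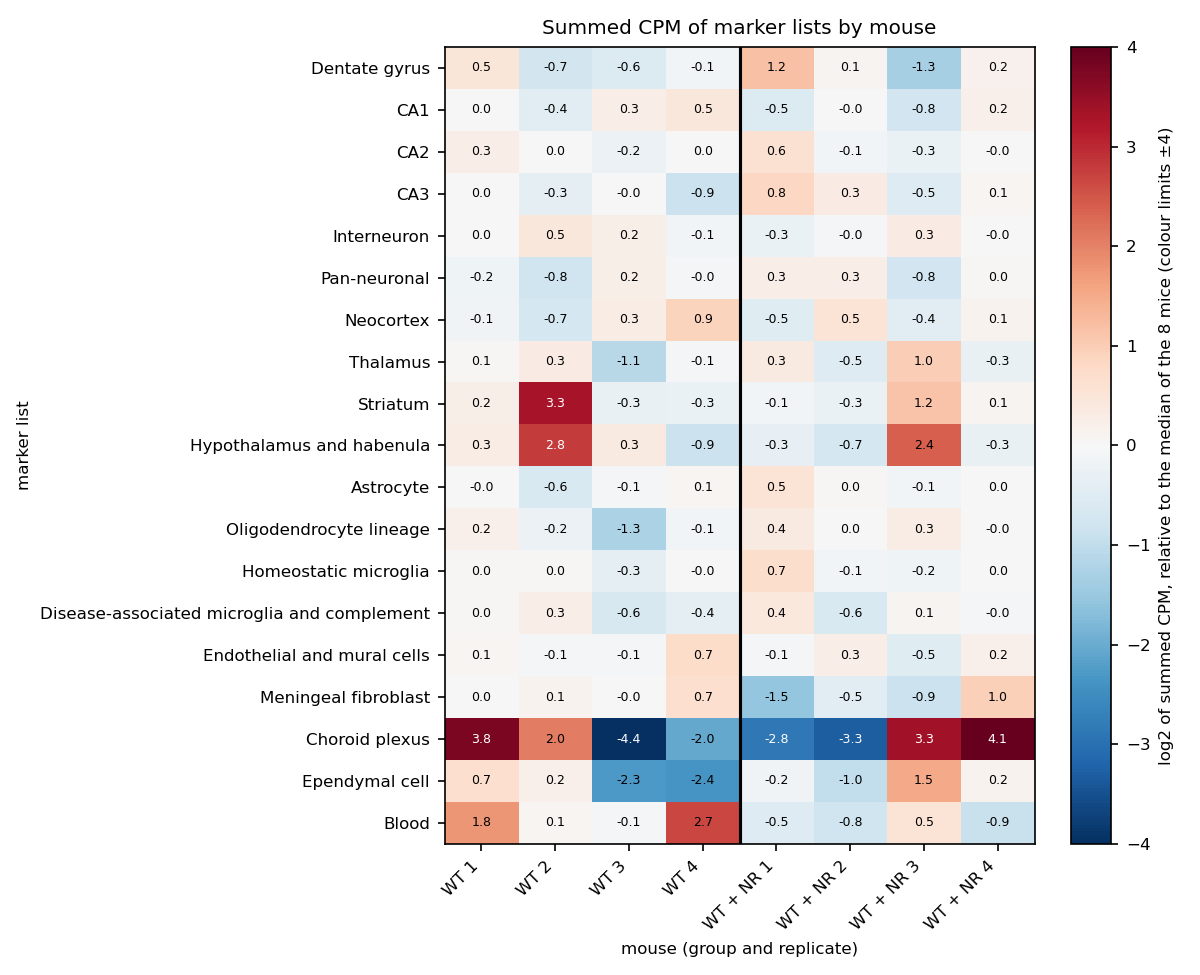
Each cell gives the log2 of the summed CPM of a marker list (rows) in one mouse (columns), relative to the median of the 8 mice, with WT left and WT + NR right of the black line. Choroid plexus, striatal, hypothalamic, ependymal and blood lists vary most, and each group holds mice at both ends of the choroid plexus scale.

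WT + NR replicate 1 stood apart from the other 7 mice in a further respect. App, which encodes the amyloid precursor protein, reached 2924 CPM there against 1367 to 1778 CPM in the others, and Prnp, the prion protein gene, 2428 CPM against 811 to 1131 CPM. Cst7, a gene of microglia around amyloid plaques, was at 34.1 CPM against 0 to 0.643 CPM, Trem2, the microglial lipid receptor, at 66.6 against 14.2 to 23.6, and Gfap, the astrocyte filament gene, at 2336 against 330 to 730. Gm13394, a gene read at 171 to 569 CPM in the 8 hTau.P301S mice, was at 1.42 to 2.31 CPM in all 8 mice labelled WT (16-mouse normalization), WT + NR replicate 1 included. Whether that mouse carried another genetic alteration was not tested. Medians of the microglial and astrocyte lists, and several other results that it moved, are given with and without it.

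The first question was which transcripts differed between NR and vehicle in mice without tau pathology. None did at the study's limits: 0 of 16714 genes (0.0%) passed an adjusted p under 0.05 with an absolute log2 fold change above 0.5 in edgeR's quasi-likelihood test, and the smallest adjusted p was 0.999972. Without adjustment, 150 genes (0.897%) had p under 0.05, with 70 higher and 80 lower with NR. The values of the 4 NR mice did not overlap those of the 4 WT mice for 126 genes (0.754%), of which 67 were higher and 59 lower. A random split of 8 mice separates the groups with probability 0.0286, and p falls under 0.05 with probability 0.05 without any effect. Both shares were below these rates, so the separated genes named below are described and not called. Of the 150 genes, 23 kept p under 0.05 and their direction whichever mouse was left out. The 150 were picked by p in these same mice, so this stability follows in part from the choice. DESeq2 on the same mice called 3 of 31805 genes (0.00943%), which are described below, and 283 at unadjusted p under 0.05. Of all genes tested, 8552 (51.2%) were higher and 8162 (48.8%) lower with NR. By correlation of log2 CPM, the most similar mouse belonged to the other group for 7 of 8 mice, and the first 3 principal components (45.1%, 16.2% and 13.7% of the variance) separated the groups with two-sided exact permutation p values of 0.886, 0.457 and 0.571 (adjusted p 0.886, 0.754 and 0.754 over 6 single values); the smallest p that 4 against 4 allows is 0.0286. The same test gave p of 0.286 for total counts, 0.629 for genes detected and 0.600 for the mitochondrial share.

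**Figure D2:**
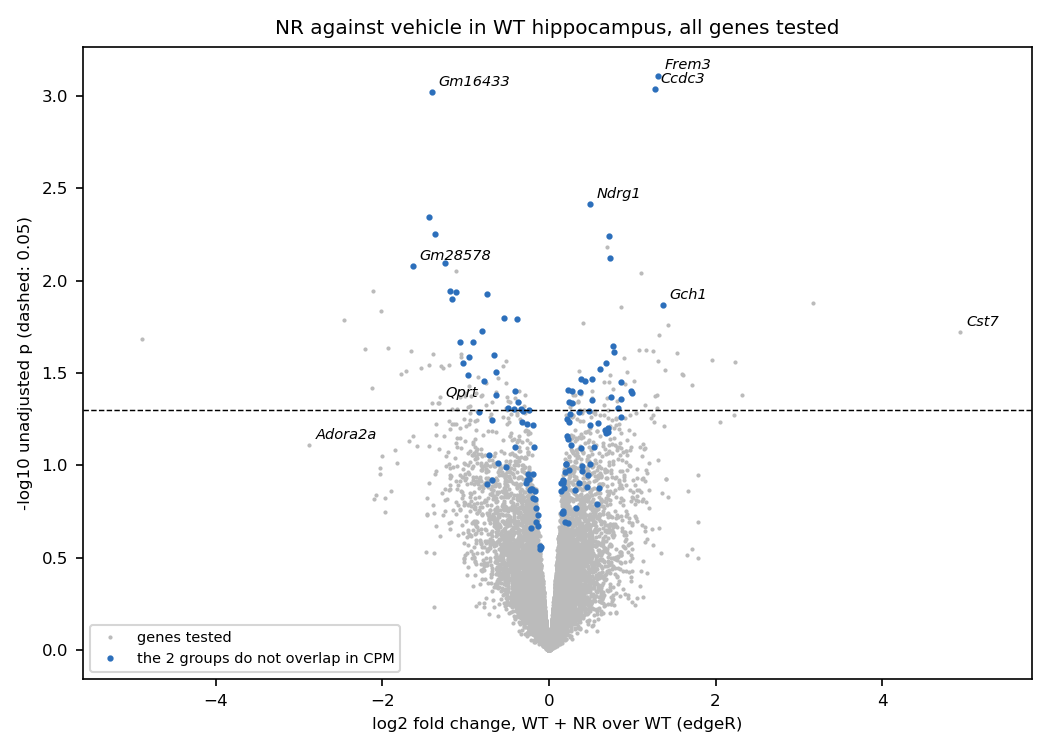
Each point is 1 of the 16714 genes tested, with the log2 fold change of WT + NR over WT on the horizontal axis and −log10 of the unadjusted edgeR p on the vertical axis. Blue marks the 126 genes whose groups did not overlap; none passed the adjusted threshold, and Frem3, Ccdc3 and Gm16433 had the smallest p.

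The size of change that these mice could have shown depended on abundance. The median standard error of a log2 fold change was 0.223, and the 95% interval lay within −1 to 1, a 2-fold change either way, for 72.9% of genes and within −0.5 to 0.5 for 35.9%. For genes with a mean of 10 to 100 CPM the first share was 91.3%, and for genes under 1 CPM 6.67%. A 2-fold change was thus outside the interval for most well expressed genes, whereas for most transcripts under 1 CPM the interval reached beyond it.

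The genes with the smallest p among those whose groups did not overlap were mostly of low abundance. Frem3, which encodes an extracellular matrix protein (chr8:80611080-80695356, + strand, mm10), was at 1.6, 1.29, 2.09 and 1.07 CPM in WT replicates 1 to 4 and at 4.34, 3.58, 4.0 and 3.12 CPM with NR. Every NR mouse was above every WT mouse, and the log2 fold change was 1.31 (SE 0.265, unadjusted p = 0.000779, adjusted p = 0.999972). The interval was 0.71 to 1.91, and the value ran from 1.18 to 1.5 with any one mouse left out. Frem3 was picked for its small p and separate groups, so this stability follows in part from the choice. Ccdc3, a secreted protein gene (chr2:5137776-5230878, + strand), was at 4.06, 2.86, 2.42 and 2.31 CPM in WT and at 9.38, 5.45, 7.01 and 6.23 CPM with NR, a log2 fold change of 1.27 (SE 0.263). Its groups were likewise separate, and DESeq2 gave adjusted p values of 0.0793 for Ccdc3 and 0.102 for Frem3.

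Ndrg1, a stress-responsive gene needed for myelin of peripheral nerve (chr15:66929318-66969640, − strand), was the most abundant of the leading genes. It stood at 107, 91.4, 74.7 and 102 CPM in WT and at 143, 125, 134 and 126 CPM with NR. All 4 NR mice were above the highest WT mouse, and the log2 fold change of 0.49 (SE 0.128) was just below the 0.5 limit. Gch1, which encodes the enzyme that opens tetrahydrobiopterin synthesis, was at 1.95, 2.34, 0.715 and 1.63 CPM in WT and at 2.49, 2.44, 6.02 and 6.17 CPM with NR. Its 2 highest mice were WT + NR replicates 3 and 4, and the other 2 NR mice were barely above WT replicate 2. The other 6 higher genes were the transcription factor genes Tfcp2l1 (log2 fold change 0.72) and Foxm1 (0.68), the MHC class I transactivator gene Nlrc5 (0.77), the guanine nucleotide exchange factor gene Def6 (0.79), Smtnl2 (0.62) and the antisense gene Gm20632 (0.73).

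The 10 lower genes comprised 2 protein-coding genes, 3 processed pseudogenes and 5 noncoding genes. Pcgf2, a Polycomb group gene (chr11:97688823-97700497, − strand), was at 14.2, 13.6, 18.6 and 18.0 CPM in WT and at 8.51, 11.8, 13.1 and 10.8 CPM with NR. The highest NR mouse was just below the lowest WT mouse, and the log2 fold change was −0.54 (SE 0.184). Mamdc4 was at 1.26, 1.58, 1.98 and 2.65 CPM in WT and at 0.651, 1.14, 1.04 and 0.588 CPM with NR (log2 fold change −1.12). Gm16433, a processed pseudogene (chr6:108563605-108565588, − strand), had the smallest p of the lower genes, at 1.66 to 2.75 CPM in WT and 0.682 to 1.0 CPM with NR (log2 fold change −1.41, SE 0.292). The remaining members were the pseudogenes Gm5345 (−1.19) and Gm5421 (−0.74), the antisense genes D830035M03Rik (−1.45) and Gm16861 (−1.25), and the long noncoding RNA genes B230317F23Rik (−1.37), Gm28578 (−1.63) and Gm37584 (−1.16). Reads of pseudogenes can come from their parent genes, and antisense genes share reads with their partners where counting ignores strand, so these values are uncertain.

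**Figure D3:**
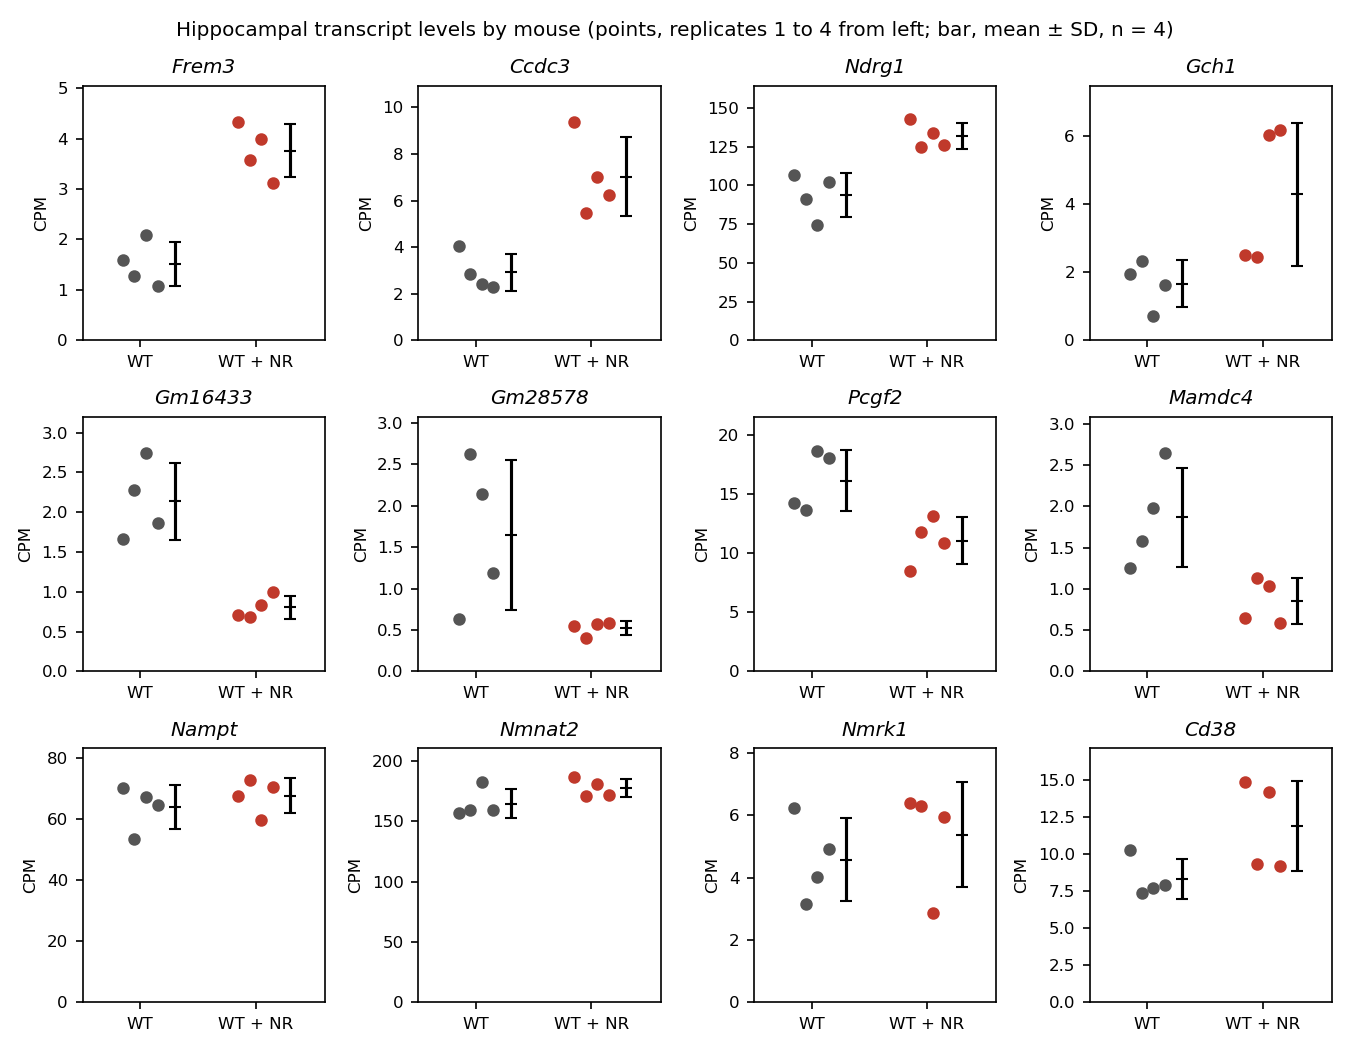
CPM of 12 genes in each mouse (points, replicates 1 to 4 from left to right) with mean ± SD (n = 4). The first 8 genes are among the leading genes whose groups did not overlap, and the last row shows NAD+ genes, whose groups overlapped.

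The enzymes that NR enters were described next, because they carry the supplement into NAD+. Nmrk1, the NR kinase that forms NMN, was at 6.24, 3.15, 4.01 and 4.90 CPM in WT and at 6.40, 6.30, 2.85 and 5.94 CPM with NR. The groups overlapped fully, with WT + NR replicate 3 the lowest of all, and the log2 fold change was 0.23 with an interval of −0.48 to 0.93. Nmrk2, the kinase of muscle, was at 0 counts in every WT mouse and at 0 or 1 count in the NR mice, so it was not tested. Pnp, a phosphorylase that also splits NR, ran from 4.29 to 11.2 CPM in WT and from 5.79 to 11.1 CPM with NR.

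Nampt, the rate-limiting enzyme of nicotinamide salvage, was at 69.98, 53.5, 67.1 and 64.7 CPM in WT and at 67.5, 72.6, 59.6 and 70.6 CPM with NR. Its log2 fold change was 0.08 with an interval of −0.18 to 0.35, so a 2-fold change lay outside the interval. Nmnat2, the axonal adenylyltransferase that turns NMN into NAD+, was at 157, 159, 182 and 159 CPM in WT and at 186, 171, 181 and 172 CPM with NR. WT replicate 3 lay among the NR mice, and the log2 fold change was 0.11 (interval −0.10 to 0.33). The nuclear Nmnat1 (−0.21, interval −0.72 to 0.30) and mitochondrial Nmnat3 (−0.29, interval −0.89 to 0.30) had wider intervals. The NAD+ kinases Nadk, in the cytosol (−0.02, interval −0.23 to 0.19), and Nadk2, in mitochondria (0.15, interval −0.18 to 0.47), were also near 0.

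Across the whole list of NAD+ synthesis and salvage, 24 of 30 genes were tested, 10 were higher and 14 lower, and the median log2 fold change was −0.02, against 0.00 (0.00455) over all genes. One member (Qprt) had unadjusted p under 0.05, beside 0.897% of all genes. Qprt, which makes nicotinic acid mononucleotide from tryptophan-derived quinolinate, was singled out after its values were seen. It was at 0.744, 3.04, 1.10 and 2.14 CPM in WT and at 0.434, 0.398, 0.519 and 1.47 CPM with NR (log2 fold change −1.32, SE 0.571, unadjusted p = 0.0459). WT + NR replicate 4 lay within the WT range. Nnt, the mitochondrial transhydrogenase gene, had 2 to 14 counts per mouse and was not tested.

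**Figure D4:**
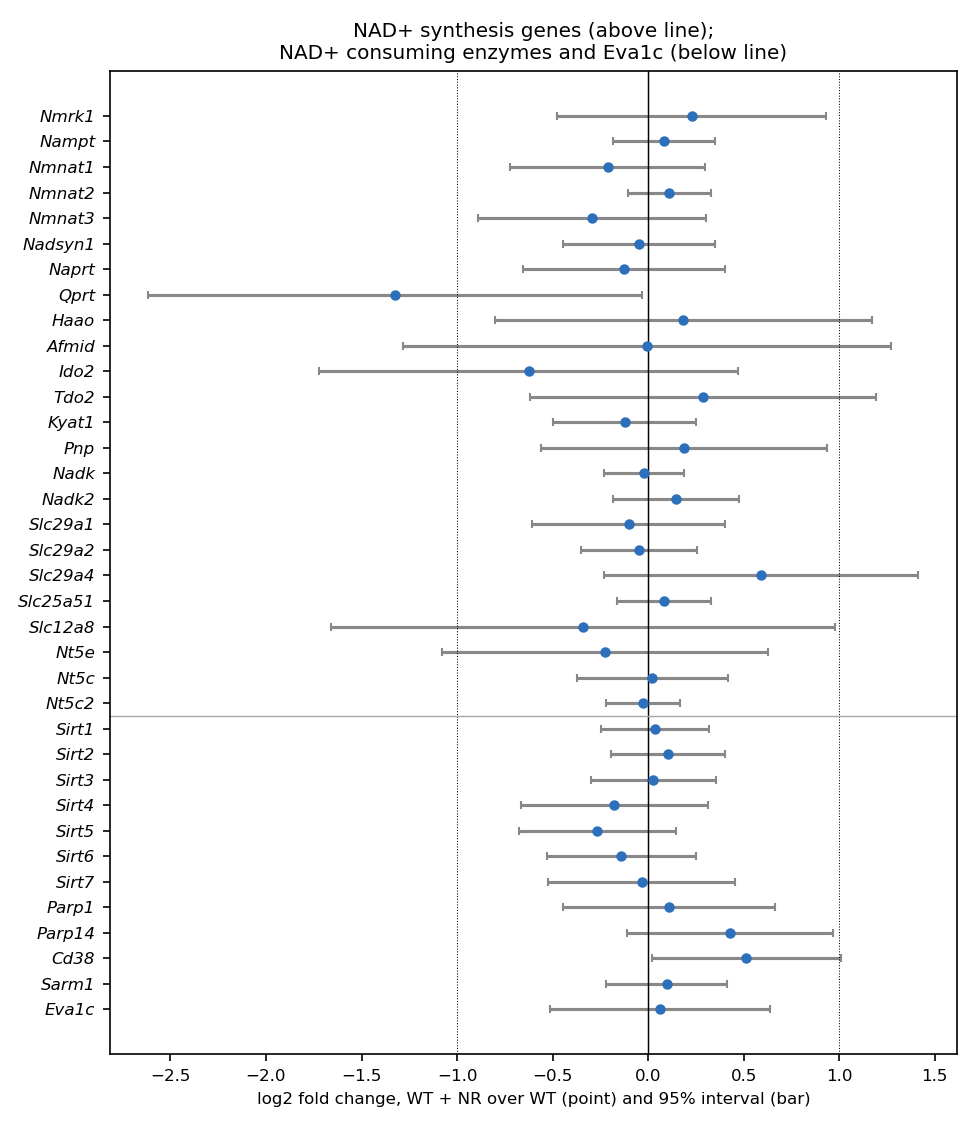
Log2 fold change of WT + NR over WT (points) with 95% interval (bars) for the 24 tested genes of NAD+ synthesis and salvage and for 12 other genes below the line. The dotted lines mark a 2-fold change either way, and only the intervals of Qprt and Cd38 leave out 0.

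Among NAD+ consumers, Cd38, a glycohydrolase that degrades NAD+ and NMN, was at 10.3, 7.36, 7.75 and 7.95 CPM in WT and at 14.9, 9.37, 14.2 and 9.17 CPM with NR. WT replicate 1 overlapped the 2 lower NR mice, and the log2 fold change was 0.51 (SE 0.219, unadjusted p = 0.0433, adjusted p = 0.999972). Without WT + NR replicate 1, the mouse with the highest value, the log2 fold change was 0.38. None of the 7 sirtuin genes had p under 0.05. Sirt1, the nuclear deacetylase, was at 16.1 to 19.5 CPM in WT and 17.4 to 19.1 CPM with NR (log2 fold change 0.03, interval −0.25 to 0.32), and Sirt3, its mitochondrial relative, differed by 0.03 (interval −0.30 to 0.35). Values were 0.10 for Sirt2, −0.18 for Sirt4, −0.27 for Sirt5, −0.14 for Sirt6 and −0.03 for Sirt7. Parp1, the main DNA-damage polymerase, was at 103, 61.5, 106 and 103 CPM in WT and at 127, 112, 60.8 and 103 CPM with NR (log2 fold change 0.11). Its 2 low mice were those with hypothalamic and striatal transcripts. Sarm1, the NAD+ hydrolase of degenerating axons, differed by 0.10 (interval −0.22 to 0.41), and Parp14, an interferon-inducible member, by 0.43 (interval −0.11 to 0.97). Of 31 genes of NAD+ consumption and nicotinamide clearance, 30 were tested, 20 were higher and 10 lower, 1 (Cd38) had p under 0.05, and the median was 0.10.

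Eva1c, an axon guidance receptor gene that the study followed downstream of NAD+, was at 2.69, 2.80, 2.75 and 2.59 CPM in WT and at 2.93, 1.70, 3.32 and 3.35 CPM with NR. WT + NR replicate 2 was the lowest and the other 3 NR mice the highest of the 8, and the log2 fold change was 0.06 (interval −0.51 to 0.64). Its list, tau with its kinases and the EVA1C axis, had 16 genes tested, 11 higher, 5 lower and 0 at p under 0.05 in edgeR, with a median of 0.04. It included Cdk5, a tau kinase, with a narrow interval (log2 fold change −0.06, interval −0.25 to 0.13), and the guidance receptor Robo1 (0.15).

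Lists of mitochondrial genes and of the stresses that NAD+ is known to affect had medians close to 0, with single members further away. For mitochondrial biogenesis, dynamics and mitophagy, 16 of 26 genes were higher and 10 lower, with a median of 0.02, 0 at p under 0.05 and all 26 intervals within a 2-fold change. Examples were Tfb1m (0.37, interval −0.25 to 0.99) and the mitophagy receptor gene Bnip3l (0.11, interval −0.11 to 0.33). The mitochondrial stress response had a median of 0.06 over 17 genes, with Sesn2 at 0.18 and the pseudokinase gene Trib3 at −1.10 (SE 0.539), on 0.217 to 1.93 CPM. Redox and NRF2 targets had a median of 0.02 over 20 genes, with catalase, Cat, at 0.33 and glutathione reductase, Gsr, at 0.20. DNA damage and senescence genes had a median of −0.01 over 17 genes, with the excision repair gene Ercc1 at −0.17. With any one mouse left out, Ercc1 ran from −0.27 to −0.12. None of these 3 lists had a member at p under 0.05.

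The nuclear-encoded respiratory chain and ATP synthase had 69 of 77 genes lower and 8 higher, with a median of −0.10 and 0 at p under 0.05. Their summed level was 9325 to 14506 CPM in WT and 9595 to 12676 CPM with NR, highest in WT replicate 2. Without that mouse 48 of the 77 genes were higher, and the median was 0.02. Cox5b, a cytochrome c oxidase subunit gene, was at 203, 210, 137 and 115 CPM in WT and at 124, 118, 149 and 133 CPM with NR (log2 fold change −0.35, SE 0.199). Only WT replicates 1 and 2 were above the NR mice. Atp5k (−0.52) and Uqcrb (−0.24) had the next smallest p. Of the 13 mitochondrially encoded protein genes, mt-Nd3 was higher (0.35, SE 0.151) and mt-Co3 lower (−0.68, SE 0.294), both with unadjusted p = 0.0454, and the median was −0.06.

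RNA processing, a subject of the study in tau mice, was compared in WT mice as well. Of 139 splicing factor and spliceosome genes, 54 were higher and 85 lower with NR, with a median of −0.04. None had unadjusted p under 0.05, and 131 of the 139 intervals lay within a 2-fold change and 90 within 0.5 on the log2 scale. Rbm45, an RNA-binding protein gene of neurons, had the smallest p: it was at 23.3, 26.6, 29.6 and 24.6 CPM in WT and at 21.5, 22.7, 20.1 and 22.6 CPM with NR. Its groups did not overlap, although the log2 fold change was only −0.26 (SE 0.121, unadjusted p = 0.0594). Rbm28 (−0.28) and Hnrnpf (0.27) followed. Over the list, groups did not overlap for 2 of 139 genes (1.44%), beside 0.754% of all genes, and 0 were called. Cytosolic ribosomal protein genes, 83 tested, were lower in 60 and higher in 23, with a median of −0.05 and a summed level that varied 2.08-fold among the mice, and Rps29 (−0.48) was an example. The sum was highest in WT replicate 2, and with any one mouse left out the median ran from −0.23 to 0.18.

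**Figure D5:**
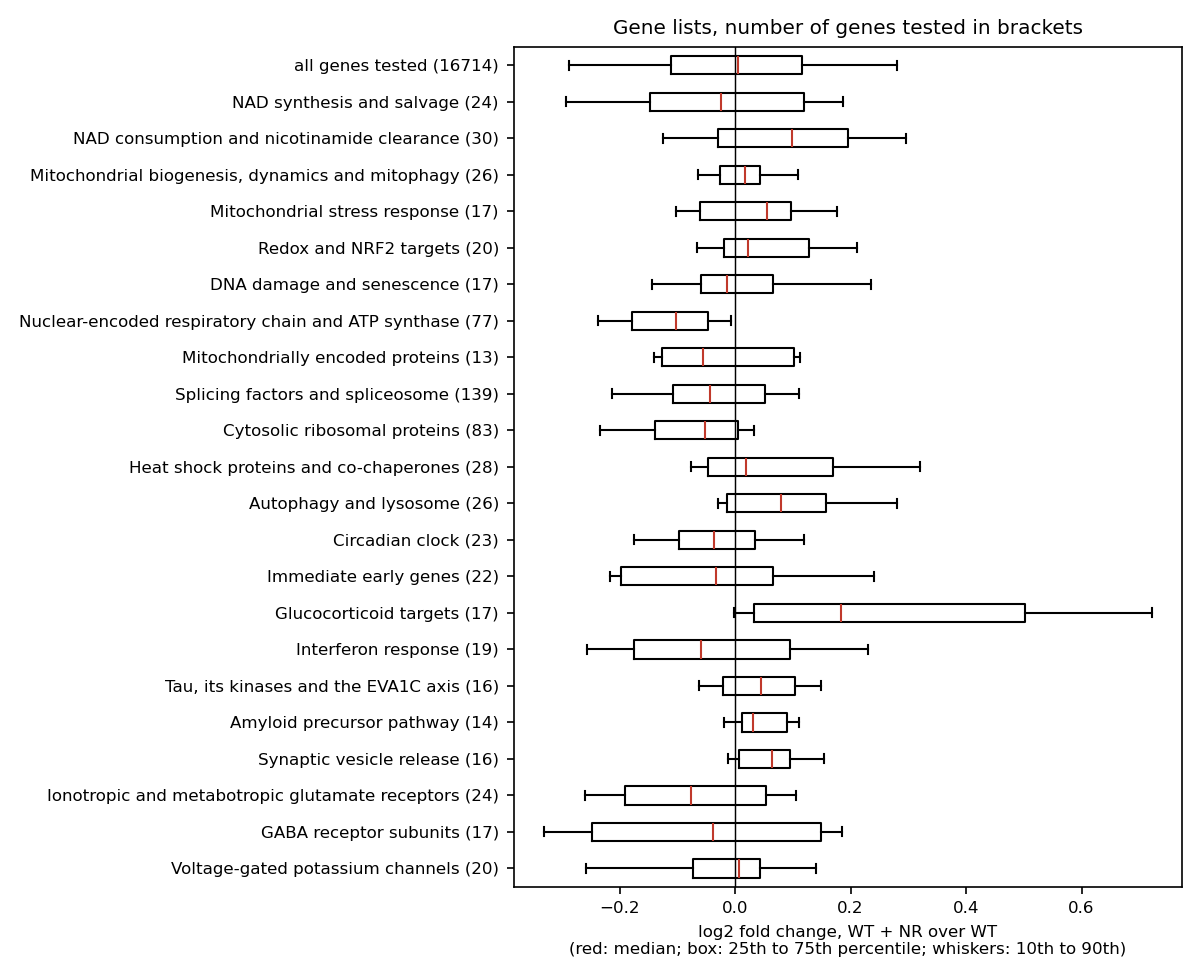
Distribution of log2 fold changes (WT + NR over WT) of 22 gene lists beside all genes tested; red is the median, the box the quartiles and the whiskers the 10th to 90th percentile. Glucocorticoid targets sit to the right of 0 and respiratory chain genes to the left, while splicing factors and NAD+ lists straddle it. Without WT replicate 2 the respiratory chain median was 0.02.

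Glucocorticoid-responsive genes had a median of 0.18, with 14 of 17 genes higher and 3 lower, 2 of them higher at unadjusted p under 0.05 (0.419% of all genes) and 0 called. Sgk1, a kinase induced by corticosterone and by ion transport signals (chr10:21882184-21999903, + strand), was at 84.1, 55.3, 58.6 and 58.1 CPM in WT and at 104, 71.6, 126 and 115 CPM with NR. WT replicate 1 lay above WT + NR replicate 2, and the log2 fold change was 0.70 (SE 0.200, unadjusted p = 0.00654, adjusted p = 0.999972). With any one mouse left out it ran from 0.60 to 0.86. Mt2, a metallothionein gene, was at 1.09, 2.04, 1.54 and 1.18 CPM in WT and at 2.44, 1.42, 3.84 and 3.47 CPM with NR (0.93, SE 0.366), and its neighbour Mt1, at 174 to 298 CPM in WT and 236 to 410 CPM with NR, differed by 0.50 (SE 0.228, unadjusted p = 0.0544). WT + NR replicate 2 was the lowest NR mouse for all 3. Without WT + NR replicate 4, 11 of the 17 genes were higher.

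Chaperone genes had a median of 0.02 over 28 members, 15 higher and 13 lower. Hspa1a, the inducible HSP70 gene, was the member at p under 0.05, with 7.84, 7.42, 8.90 and 11.2 CPM in WT and 14.2, 11.2, 25.6 and 9.11 CPM with NR (log2 fold change 0.77, SE 0.318). WT + NR replicate 3 was far above the rest, and without it the log2 fold change was 0.38. Its neighbour and near-identical copy Hspa1b was highest in that mouse too (0.63, SE 0.348). Reads of this pair may be shared. Hspa2 differed by 0.32. Autophagy and lysosome genes had a median of 0.08 over 26, with 18 higher; Ctsd, a lysosomal protease gene, was at 163 to 267 CPM in WT and at 195 to 528 CPM with NR (0.70, SE 0.296, unadjusted p = 0.0432), and at 0.40 without WT + NR replicate 1. Ctss (0.46, and 0.13 without that mouse) and Lamp1 (0.22) came next.

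Clock genes, whose rhythm depends on NAD+ in other tissues, had a median of −0.04 over 23 genes, with 10 higher and 13 lower. Npas2 (−0.49, SE 0.270), Ciart (−0.29) and Nr1d1 (−0.16), repressors and activators of the loop, had the smallest p. Time of collection is not given in the sources used here. Immediate early genes had a median of −0.03 over 22, with wide intervals, such as for the neurotrophin gene Bdnf (0.49, interval −0.39 to 1.37) and Nptx2 (0.24). Interferon response genes had a median of −0.06 over 19, with Oasl2 at 0.31. None of these 3 lists had a member at p under 0.05.

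Disease-associated microglial and complement genes were higher with NR in 18 of 19 cases, with a median of 0.53, and 3 of them had unadjusted p under 0.05 (0.419% of all genes). The 3 were Cst7 (log2 fold change 4.94, SE 1.75), Clec7a (2.32, SE 0.975) and Itgax (1.96, SE 0.743), and each was highest in WT + NR replicate 1. Clec7a was at 1.49, 0.643, 0.110 and 0.620 CPM in WT and at 10.8, 0.966, 1.40 and 1.06 CPM with NR. Without that mouse 12 of 19 were higher and 7 lower, 0 had p under 0.05, the median was 0.09, and Cst7 stood at 0.78, Clec7a at 0.67 and Itgax at 0.79. Homeostatic microglial genes had 11 of 12 higher and a median of 0.16, among them the receptor gene Gpr34 (0.46). Their summed level was 763 CPM in WT + NR replicate 1 and 372 to 488 CPM in the other 7 mice. Without that mouse 3 of 12 were higher and 9 lower, the median was −0.09, and Gpr34 stood at 0.17.

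Astrocyte genes had 12 of 14 higher and a median of 0.28, which was 0.14 without WT + NR replicate 1. Aqp4, the water channel of astrocyte endfeet, was at 156, 131, 115 and 136 CPM in WT and at 193, 144, 167 and 163 CPM with NR (0.31, SE 0.131, unadjusted p = 0.0416). WT replicate 1 lay within the NR range, and the log2 fold change ran from 0.22 to 0.39 with any one mouse left out. Gfap (1.02, SE 0.490) and Serpina3n (0.72, SE 0.361), reactive astrocyte genes, stood at 0.23 and 0.21 without WT + NR replicate 1. Oligodendrocyte genes had 13 of 15 higher and a median of 0.29: Mobp, a myelin protein gene, was at 1239, 807, 366 and 999 CPM in WT and at 1477, 1083, 1457 and 1048 CPM with NR (0.57, SE 0.333). WT replicate 3 was the lowest and WT replicate 1 lay within the NR range, and without WT replicate 3 the median of the list was 0.11. Of the oligodendrocyte genes, 0 had p under 0.05.

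Blood genes were lower with NR in 5 of 5 cases, 3 of them at unadjusted p under 0.05 (0.479% of all genes), with a median of −1.66. Hbb-bs, a beta-globin gene, was at 25.3, 8.06, 6.71 and 51.5 CPM in WT and at 4.61, 4.37, 10.3 and 3.12 CPM with NR (log2 fold change −2.02, SE 0.672, unadjusted p = 0.0146). WT replicates 1 and 4 were high, and WT + NR replicate 3 was above WT replicates 2 and 3. Hba-a1 (−1.66) and Hba-a2 (−2.46), alpha-globin genes with near-identical coding sequence whose reads may be shared, followed the same mice. The median was −0.89 without WT replicate 4. The part of residual blood in these values was not tested. Endothelial and mural genes had 7 of 9 lower, with a median of −0.11, which was 0.14 without WT replicate 4, and Vtn, a pericyte gene, at −0.53 (SE 0.309).

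Neuronal marker lists varied with the mice described above. Dentate gyrus genes were higher with NR in 6 of 6 cases (median 0.39), but Prox1 was at 114, 35.1, 74.0 and 96.7 CPM in WT and at 169, 111, 35.5 and 94.4 CPM with NR (0.36, SE 0.463), and without WT + NR replicate 1 the median was −0.07. Dsp (0.80, SE 0.827), another granule cell gene, was at 0.10 without that mouse. CA1 genes were lower in 4 of 4 cases (median −0.38, and −0.08 without WT replicate 4), with Wfs1 at −0.40 and Pou3f1 at −0.48. CA3 genes were higher in 4 of 4 (median 0.42), with Nectin3 at 0.50 and Bok at 0.69. The CA3 sum was 291 CPM in WT + NR replicate 1 and 88.8 to 202 CPM in the others, and without that mouse the median was 0.30 and Bok at 0.14. Interneuron genes were lower in 12 of 15 (median −0.20, and −0.09 without WT + NR replicate 1), among them the neuropeptide gene Npy (−0.38, SE 0.185), Pvalb (−0.59) and Lhx6 (−0.53). Pan-neuronal genes had a median of 0.07 over 9, which ran from −0.08 without WT replicate 2 to 0.24 without WT replicate 3, with Camk2a (log2 fold change 0.27) at 1669 CPM in WT replicate 2 and 1363 CPM in WT + NR replicate 3 against 3187 to 5098 CPM in the rest, and Nefm at −0.12. None of these lists had a member at p under 0.05. Medians of the remaining region and cell lists were 0.16 for CA2 (4 genes), −0.20 for neocortex (6), 0.36 for thalamus (7), −0.22 for hypothalamus and habenula (11), −0.36 for meningeal fibroblasts (9), 0.74 for ependymal cells (5) and 0.04 for cold-inducible RNA-binding proteins (2), and the sex-linked list had 1 gene tested. These medians moved with single mice: with one left out they ran from −0.04 to 0.37 for CA2, −0.57 to −0.05 for neocortex, 0.19 to 0.54 for thalamus, −1.83 (without WT + NR replicate 3) to 1.124 (without WT replicate 2) for hypothalamus and habenula, −1.03 (without WT + NR replicate 4) to 0.05 (without WT replicate 4) for meningeal fibroblasts, 0.14 (without WT + NR replicate 3) to 1.26 for ependymal cells, and −0.07 to 0.09 for the cold-inducible genes.

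Striatal genes were lower in 12 of 12 cases with a median of −1.46, yet Adora2a (−2.88, SE 1.45), Penk (−2.03) and Pde10a (−0.95) were each set by WT replicate 2: without it 11 of 12 were higher and the median was 0.93. With another mouse left out the striatal median reached −2.85. Choroid plexus genes were higher in 16 of 16 cases with a median of 0.74. Without WT + NR replicate 4 that median was −0.26, and with another mouse left out it reached 2.48. Nuclear long noncoding RNAs were lower in 7 of 8 cases with a median of −0.69. Meg3, one of them, was at 613, 269, 2531 and 2355 CPM in WT and at 621, 1136, 590 and 430 CPM with NR (−1.05, SE 0.647), with WT replicates 3 and 4 alone above the highest NR mouse. Mirg (−0.75, SE 0.305) was the member at p under 0.05, and Snhg11 was at −0.97.

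Synaptic and excitability genes were compared as possible targets of NAD+ in neurons. Synaptic vesicle release genes had a median of 0.06 over 16, with Rims1 at 0.30 and Syn1 at 0.15. Glutamate receptor genes had a median of −0.08 over 24, with Grik1, a kainate receptor subunit gene, at −0.34. WT + NR replicate 1 was the lowest NR mouse for Grik1, at 7.65 against 12.3 to 13.3 CPM. With any one mouse left out, Grik1 ran from −0.43 to −0.20. GABA receptor subunit genes had a median of −0.04 over 17, with Gabrr2, at 0.351 to 1.07 CPM in WT and 0.764 to 2.49 CPM with NR, at 1.25 (SE 0.460, unadjusted p = 0.0242). Voltage-gated potassium channel genes had a median of 0.01 over 20, with Kcnd1 at −0.26. Amyloid precursor pathway genes had a median of 0.03 over 14. Ide, which encodes an enzyme that degrades amyloid beta and insulin, was at 45.7, 77.2, 50.1 and 69.1 CPM in WT and at 43.1, 48.9, 43.2 and 47.5 CPM with NR (−0.41, SE 0.173, unadjusted p = 0.0431). WT replicates 2 and 4 made the difference, and the other 2 WT mice lay within or just above the NR range. App (0.34) was at 0.09 without WT + NR replicate 1, and Clu differed by 0.30, or 0.16 without that mouse.

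DESeq2 called 3 genes that the count filter had removed from the edgeR test. Prl, the prolactin gene of the anterior pituitary, had 0 counts in each WT mouse and 13, 92, 10 and 95 counts in WT + NR replicates 1 to 4 (DESeq2 adjusted p = 3.14e-05). Gh, the growth hormone gene, had 0 counts in each WT mouse and 4, 52, 31 and 97 counts with NR (DESeq2 adjusted p = 4.86e-05). In DESeq2 with all 4 groups in one fit, Gh lost its call (adjusted p = 1), while Prl (adjusted p = 0.00134) kept it. Against a floor of 3 counts per library, Prl was at least 17.7-fold and Gh at least 15.4-fold higher on average. Both genes were also read in mice on vehicle: among hTau.P301S mice, Prl had 0 to 21 counts on vehicle and 0 to 2 with NR, and Gh 0 to 43 and 0 to 6. Gm2260, an unprocessed pseudogene, had 4, 1, 4 and 4 counts in WT and 10, 59, 61 and 110 with NR (DESeq2 adjusted p = 0.000230), with its reads uncertain between gene copies. In hTau.P301S replicates 1 to 4, Gm2260 had 3, 38, 11 and 52 counts on vehicle and 9, 9, 3 and 1 with NR. In edgeR without the filter the adjusted p of all 3 was 0.998. With WT + NR replicate 1 left out, the edgeR adjusted p of Gm2260 was 0.0528, and it was not called.

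The last comparison asked whether NR differed in its effect between WT and hTau.P301S mice, which share no animals. One vehicle mouse, hTau.P301S replicate 1, stood apart from the other 7 tau mice: Trem2 was at 426 CPM against 18.6 to 39.9, App at 711 against 1649 to 2026 and Mapt, the tau gene, at 188 against 388 to 484 (16-mouse normalization). In the tau mice 2268 of 16386 genes (13.8%) had unadjusted p under 0.05, and 2 were called (0.0122%). Without hTau.P301S replicate 1 these were 3072 of 16734 (18.4%) and 37 (0.221%). The SD of log2 fold changes over the 16113 genes tested in both was 0.281 in WT and 0.681 in tau mice, and 53.8% had the same sign. Without that mouse the SD in tau mice was 0.459, against 0.290 in WT over 16295 genes, and 49.2% had the same sign. An interaction fit over all 16 mice called 0 of 17555 genes in edgeR, with 1513 (8.62%) at unadjusted p under 0.05, and DESeq2 called 17. Without that mouse edgeR again called 0, with 1408 of 17897 (7.87%) at unadjusted p under 0.05. The difference between genotypes was thus not shown for any named gene in edgeR. Sgk1 gave an interaction of −2.12 (log2 fold change 0.70 in WT and −1.43 in tau mice, adjusted p = 0.283), and Mt2 −5.52 (0.93 and −4.64, adjusted p = 0.532). Without that mouse the interactions were −2.30 for Sgk1 (adjusted p = 0.124) and −2.71 for Mt2 (adjusted p = 0.212), with −1.60 and −1.78 in tau mice. Glucocorticoid targets had a median of 0.18 in WT and −1.17 in tau mice, the respiratory chain −0.10 and −1.59, splicing factors −0.04 and −0.08, and NAD+ synthesis genes −0.02 and −0.23. Without that mouse the 4 medians in tau mice were −1.13, −0.17, −0.03 and −0.12, so that of the respiratory chain rested mostly on it.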

How the data were processed

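RNA-seq of hippocampus from 8 mice was analysed. The deposited values are raw counts per gene: per the labels and the study's methods, the authors trimmed reads with Trim Galore, aligned them to mm10 with STAR and counted with RSEM, one column per mouse. The counting strand and annotation release are not given in the sources used here. Groups came from the labels, and coordinates from GENCODE M21 (mm10).

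Counts were tested with edgeR 4.0.16 (filterByExpr, TMM, quasi-likelihood, Benjamini-Hochberg) in R 4.3.3, after the script was tested on simulated data. Called genes had adjusted p under 0.05 and absolute log2 fold change above 0.5. CPM are TMM-normalized and single values were tested by exact permutation. DESeq2 1.42.0, limma 3.58.1 and sva 3.50.0 served as alternatives. The 44 gene lists and the comparison were chosen with earlier results of these data known. Named genes were called genes, the 10 of smallest p per direction whose groups did not overlap, DESeq2 calls, enzymes of NR, NMN and NAD+ turnover, the 3 members of smallest p of each list, and the 10 most variable genes (mean of at least 5 CPM); not all are printed, and some are not reported here. Ttr and Avp are of the last kind. Markers of libraries that stand apart were chosen after their values were seen. Same-numbered mice did not deviate together (correlations −0.56 to −0.04), so numbers were not used as pairs. Replicates are separate mice. Total counts ran from 16490261 to 18979269 per mouse. Precision depended on variation among the 4 mice of a group as well as on counts. The median standard error was 0.168 for genes of 10 to 100 CPM and 0.161 for those of 100 CPM or more.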

Additional observations from a re-analysis of the deposited data

Results flagged for a closer look

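Outliers were sought in 242 groups of 4 mice (nearly all genes named with a fold change, and 6 single values per mouse). In 19, the distance of a mouse from the nearest other mouse exceeded Dixon's 95% critical share of the group's range. For independent normal groups about 1 in 20 would do so. Many of these genes were chosen by their values and vary together by library, so that rate is no benchmark for the 19. Of the 19, 6 concerned WT replicate 2: Adora2a at 157 CPM, Penk at 642, Pde10a at 343, Camk2a at 1669, Parp1 at 61.5 and Foxm1 at 0.876. Another 6 concerned WT + NR replicate 1: Cst7 at 34.1 CPM, Itgax at 7.81, Clec7a at 10.8, Gfap at 2336, Ercc1 at 16.3 and Grik1 at 7.65. WT + NR replicate 3 stood apart for Adora2a at 14.5 CPM, Nmrk1 at 2.85 and Nectin3 at 23.3. The others were Gm20632 at 2.90 CPM in WT + NR replicate 2, Qprt at 1.47 in WT + NR replicate 4, Nmnat2 at 182 in WT replicate 3 and Sgk1 at 84.1 in WT replicate 1.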

How the results depend on the processing

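The count of called genes was 0 in every edgeR and limma setting, with any one mouse left out (0 to 0), and at adjusted p alone; DESeq2 called 3 on the 8 mice (Prl, Gh, Gm2260) and 3 with all 4 groups, where Serpina1e took the place of Gh. The count at unadjusted p under 0.05 (150) was 283 and 282 in these DESeq2 fits, 391 with voom quality weights, 528 without a filter and 397 with 1 surrogate variable. It ran from 126 to 360 with one mouse left out: 360 without WT replicate 1, 335 without WT replicate 2, 313 without WT + NR replicate 3 and 251 without WT + NR replicate 2. With alternatives chosen after seeing the data, it was 501 in the 6 mice with at most 3 Y-linked counts, 328 without WT replicate 2 and WT + NR replicate 3, and 183 without these and WT + NR replicate 1. With the replicate number as a block it was 100, and 0 genes were called. For the interaction, DESeq2 called 17, and edgeR 0 to 1 with one mouse left out, the 1 without WT + NR replicate 1.

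Differences in group means ran, with one mouse left out, from −11.6 to 30.3 for PC1, −4.06 to 24.8 for PC2, −14.5 to 40.5 for PC3, −765 to 6.33 for genes detected, −0.69 to −0.03 points for the mitochondrial share and 396965 to 1070050 for total counts. Gene values near 0 turned sign. In the 6 mice with at most 3 Y-linked counts, log2 fold changes were −0.17 for Pnp, −0.052 for Nadk2, −0.034 for Sirt2, −0.048 for Sirt3, 0.12 for Sirt7 and −0.029 for Eva1c. Without WT replicate 2 and WT + NR replicate 3 they were 0.017 for Nadk, 0.020 for Sirt7 and −0.014 for Eva1c, and without WT + NR replicate 1 as well 0.042 for Nmnat1, 0.0022 for Nadk, −0.031 for Sirt2, −0.10 for Eva1c and −0.037 for Hspa1b. Quality weights gave 0.0075 for Nadk and a surrogate variable −0.0029 for Sirt3. With one mouse left out, ranges that crossed 0 were −0.00081 to 0.14 for Nampt, −0.014 to 0.43 for Pnp, −0.057 to 0.018 for Nadk, −0.011 to 0.075 for Sirt1, −0.057 to 0.11 for Sirt3, −0.21 to 0.086 for Sirt7, −0.053 to 0.29 for Parp1, −0.026 to 0.24 for Eva1c, −0.0098 to 0.64 for Prox1, −0.58 to 0.0069 for Wfs1, −4.0 to 1.07 for Adora2a and −3.01 to 0.45 for Penk. The cause was not tested.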
